A study of Mus musculus with 24 samples.

Results

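The microRNAs miR-337-5p, miR-433 and miR-127 are 3 of the 611 mouse miRNAs measured on these arrays, where they are listed as mmu-miR-127, mmu-miR-433 and mmu-miR-337-5p. They were chosen by name, as the miRNAs of the imprinted Dlk1-Dio3 region among those that the study tabulated, and all 3 were found on all 24 arrays, each with 20 spots. Total RNA came from the lungs of SP-C/c-raf mice and of wild-type mice, all aged 4 to 6 months. The study's methods describe laser microdissection before RNA extraction, but elsewhere it speaks of extracts of lungs. Whether the array RNA came from microdissected cells is therefore not settled here. The surfactant protein C promoter drives an activated c-Raf kinase in the lung epithelium of the transgenic animals. The groups were transgenic males (M c-Raf), wild-type males (M WT), transgenic females (F c-Raf) and wild-type females (F WT), with 6 arrays each. All samples, the wild-type ones included, carry the tissue label lung adenocarcinoma, and the strain is not given in the sources used here.

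The Dlk1-Dio3 region is an imprinted domain: its protein-coding genes Dlk1, Rtl1 and Dio3 are expressed from the paternal chromosome, and its non-coding RNAs and miRNAs from the maternal chromosome. The 3 miRNAs belong to the transcript that runs antisense to Rtl1, a retrotransposon-derived gene needed in the placenta. Being perfectly complementary to the Rtl1 message, they can direct its cleavage. The region is active in the embryo and the placenta and, in adults, mainly in the brain.

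The mature sequences are printed to show what the arrays measured. Capitals mark the seed, bases 2 to 8, with which a miRNA recognises its targets. They are RefSeq sequences, and the coordinates are those of GRCm38.p6. The array's miR-127 and miR-433 are the arms now called miR-127-3p and miR-433-3p.

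miR-337-5p, chr12:109585818-109585839, plus strand: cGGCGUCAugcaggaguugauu

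miR-433 (miR-433-3p), chr12:109591781-109591802, plus strand: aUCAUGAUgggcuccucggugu

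miR-127 (miR-127-3p), chr12:109592888-109592909, plus strand: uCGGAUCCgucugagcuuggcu

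Each seed differs from those of the other 2 and is shared with 0 of the other mature mouse miRNAs among the 1679 in the RefSeq table. The 3 hairpins, Mir337, Mir433 and Mir127, lie in this order within 7127 bases, with 5829 bases between the first pair and 1007 between the second. All 3 hairpins lie inside the span annotated as Rtl1 (chr12:109564900-109604418), on the strand opposite to that gene.

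The opposite arm of each hairpin was on the array as well, and is shown because it comes from the same precursor.

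miR-337-3p, chr12:109585850-109585871, plus strand: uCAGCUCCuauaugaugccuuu

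miR-433* (miR-433-5p), chr12:109591729-109591750, plus strand: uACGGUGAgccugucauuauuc

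miR-127* (miR-127-5p), chr12:109592854-109592875, plus strand: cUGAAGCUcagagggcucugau

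All 3 opposite arms were detected on 0 of 24 arrays. Their highest unscaled intensities were 2.58 for miR-337-3p and 6.40 for miR-433*, both on M WT replicate 5, and 0.775 for miR-127* on F WT replicate 2. For miR-337 and miR-127, only the arm described below was therefore detected on more than 1 array. For miR-433 the arms were not told apart: miR-433 was detected on 1 array, with a highest intensity of 3.47. Both miR-433 and miR-433* lay at the floor, defined below, on 21 of 24 arrays.

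Intensity here is the background-corrected signal of a spot in scanner units, and it is negative where the spot was darker than its surroundings. The arrays differed in brightness, the 75th percentile of intensity over the 27 miRNAs detected on all arrays, from 34.9 on M c-Raf replicate 6 to 1212 on M c-Raf replicate 4. Median brightness was 433.1 for M c-Raf, 175.7 for M WT, 193.1 for F c-Raf and 264.9 for F WT. Each spot was divided by its array's brightness, values under 0.01 were set to 0.01, and the log2 of the median over spots is called the scaled signal. The floor therefore lies at -6.64, and values at it have no order. The replicate number is the number of the glass slide, each slide carried 1 array of each group, and each group had 1 fixed position on the slides, so that position and group cannot be told apart. F WT replicate 5 stood apart for these miRNAs: it was the only array of the series on which all 3 were detected, and the comparisons of miR-127 and of the probes A_54_P2288 and A_54_P2533 that use it are also given without it. That array was singled out by these same values. Without it every F WT array lay at the floor for miR-127 and both probes, as every M WT array did for miR-127. The floor then removes much of the spread that limma shares between groups, so the p-values without this array are not support for a difference.

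miR-127 was detected in all transgenic females and was near zero on 11 of the 12 wild-type arrays. Its unscaled intensity, the median over 20 spots, had a lowest value of 4.69, a median of 10.9 and a highest value of 15.2 in F c-Raf. In F WT the lowest was -1.41, the median 0.776 and the highest 47.5, the last on replicate 5. F WT replicate 5 was thus the array with the most miR-127 signal in the series, while the other 5 F WT arrays lay below every F c-Raf array. The M c-Raf intensities ran from 0.339 over a median of 4.86 to 26.4, and those of M WT from -0.999 over a median of -0.0490 to 1.11. The 2 highest M c-Raf values were on replicates 4 and 5, which are the brightest arrays of the series at 1212 and 792.0.

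After scaling, the order of the miR-127 group means was F c-Raf, F WT, M c-Raf and M WT. The scaled signal was -4.44 ± 0.40 in F c-Raf (SD, n = 6), from -4.98 over a median of -4.34 to -3.93. In F WT it was -6.06 ± 1.43, with 5 arrays at the floor and replicate 5 at -3.15. In M c-Raf it was -6.15 ± 0.54, from -6.64 over a median of -6.35 to -5.45, with 1 array at the floor. In M WT all 6 arrays lay at the floor. The F WT and M c-Raf means, neighbours in this order, are not separated by their spread, and without replicate 5 every F WT array lay at the floor, level with M WT. In bulk RNA, fewer cells of a type and less RNA per cell cannot be told apart.

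**Figure D1:**
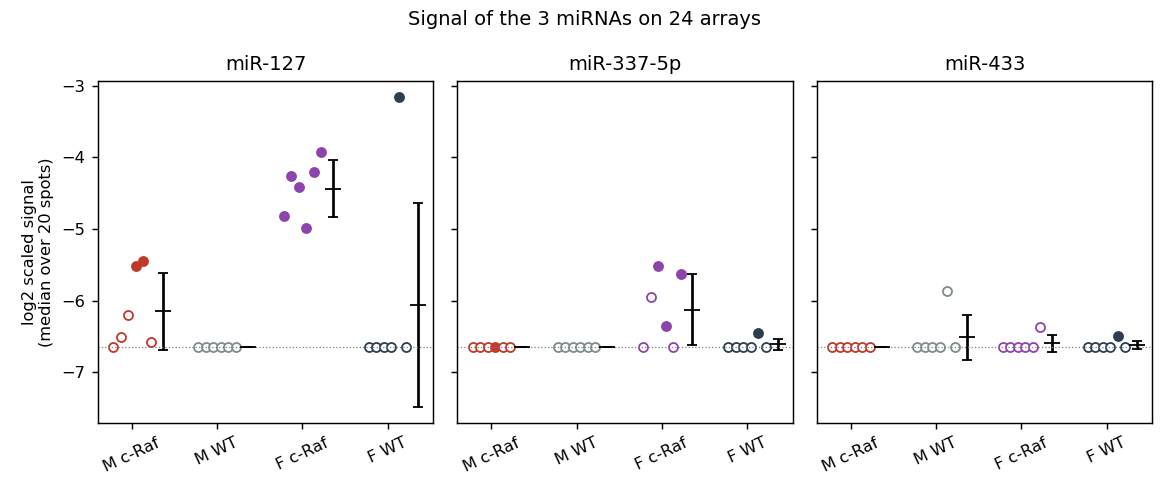
Scaled signal of miR-127, miR-337-5p and miR-433 (log2, median over 20 spots) on the 24 arrays, by group. Filled points are arrays on which the miRNA was detected, bars show the mean and SD of 6 arrays, and the dotted line is the floor at -6.64. All 6 F c-Raf arrays lie above the floor for miR-127, whereas in F WT only replicate 5 does, and most values of miR-433 and miR-337-5p lie at it.

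In females miR-127 was up-regulated in c-Raf by 1.63 on the log2 scale (SE 0.44, limma adjusted p = 0.0338 over 120 miRNAs). On 5 of 6 slides, where F WT lay at the floor and no lower value was possible, it was higher. It was 1 of 6 miRNAs called in that comparison, 5.0% of those tested. miR-127 was tested because it was detected on at least 6 arrays, and all 6 F c-Raf arrays were among its 9, so that the filter was passed through the group in which it was high. Over all 611 miRNAs without that filter, the limma adjusted p was 0.186 and 0.327% were called. Within the 4 scans the female difference was 1.66, 0.83, 1.82 and 2.31. Without F WT replicate 5 it was 2.21 (limma adjusted p = 8.01e-08), where both WT groups lay at the floor and had no spread of their own. Leaving out any 1 of F c-Raf replicates 2, 3, 5 and 6 or F WT replicates 1, 2, 3, 4 and 6 took the adjusted p above 0.05, up to 0.0946 at a difference of 1.51. The floor decides its size: with a floor of 0.1, which lies above most of these values, the female difference was -0.03 and not called, and with normexp background correction it was 0.75 (limma adjusted p = 0.326). No fold is given for females. With each F WT array set to its dimmest signal well above background where that was higher, the F WT mean was -3.84. The F c-Raf mean of -4.44 did not reach it.

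In males the difference between c-Raf and WT was 0.49 (SE 0.44, 95% interval -0.42 to 1.41, limma adjusted p = 0.438), where 2.5% of miRNAs were called. M c-Raf was higher on 5 of 6 slides and both arrays were at the floor on the remaining slide. As all 6 M WT arrays lay at the floor, no slide could give a lower value in M c-Raf. The exact two-sided permutation test of miR-127 alone gave p = 0.0152 in males and 0.0260 in females, unadjusted. No fold is given, as the mean of M c-Raf did not reach the lowest signal that counted as well above background. The male difference turned to -0.84 with normexp and was 2.98 (limma adjusted p = 0.0428) with a floor of 0.001. Over both sexes the c-Raf difference was 1.06 (SE 0.31, limma adjusted p = 0.0238), where 18.3% of miRNAs were called, and it was positive on 6 of 6 slides. On 5 of those slides both WT arrays lay at the floor, where no negative difference was possible. Without F WT replicate 5 the difference over both sexes was 1.35 (limma adjusted p = 5.96e-07). The call with all arrays was lost without the filter on detection (limma adjusted p = 0.142) and without scaling between arrays (1.42, limma adjusted p = 0.204). The median difference of all 120 miRNAs was 0.13 (males), 0.03 (females) and 0.09 (sexes together).

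Between the sexes, miR-127 was lower in M c-Raf than in F c-Raf by 1.71 (difference -1.71, SE 0.44, limma adjusted p = 0.0322). Each of the 6 slides and 4 scans gave a lower value in males (scan differences from -2.02 to -0.54), and 2.5% of miRNAs were called. Leaving out any single array among M c-Raf replicates 1, 2, 3 and 6 and F c-Raf replicates 2, 3, 5 and 6 ended the call (adjusted p up to 0.0977). This comparison shares its F c-Raf arrays with that of F c-Raf and F WT. F c-Raf, the higher group here, was also the one through which miR-127 passed the filter on detection, and over all 611 miRNAs the call was lost (limma adjusted p = 0.219). It depended on the scaling as well: without scaling between arrays it was -0.63 (limma adjusted p = 0.611). M WT and F WT differed by -0.58 (SE 0.44, limma adjusted p = 0.608), and without F WT replicate 5 both groups lay at the floor. The c-Raf effect was smaller in males than in females by 1.13 (difference -1.13, SE 0.62, limma adjusted p = 0.872), where limma called 0 of 120 miRNAs (0.0%) and 5 had an unadjusted p under 0.05. Without F WT replicate 5 the difference of the effects was -1.71 (limma adjusted p = 0.000678), so that this single array decided the call. With both WT groups at the floor, that value is the difference between the c-Raf groups over again. Its p rests on a spread that the floor had reduced, so it is not a separate result on sex.

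Each miRNA was measured by 2 probes with 10 spots each, which were compared because they answered very unequally. For miR-127, the probe A_54_P2288 gave larger differences between groups than A_54_P2287, though the 2 were not tested against each other. Its unscaled intensity ran from 9.57 over a median of 19.1 to 32.2 in F c-Raf, and 46 of its 60 spots there were well above background. The other probe, A_54_P2287, ran from -0.471 over a median of 3.68 to 4.65 in F c-Raf, with 1 of 60 spots well above background. The level of a probe is not set against that of another here, and only differences between groups within a probe are compared.

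At A_54_P2288 the F WT intensities were -0.0595 at the lowest, 1.28 at the median and 52.1 at the highest, on replicate 5. Those of M WT were -0.179, 1.08 and 2.32, with 0 of 60 spots well above background. Those of M c-Raf were 0.103, 7.82 and 47.3, and 21 of 60 spots were well above background on 3 arrays. All 6 F c-Raf arrays were above all 6 M WT arrays and above 5 of the 6 F WT arrays, before any scaling.

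**Figure D2:**
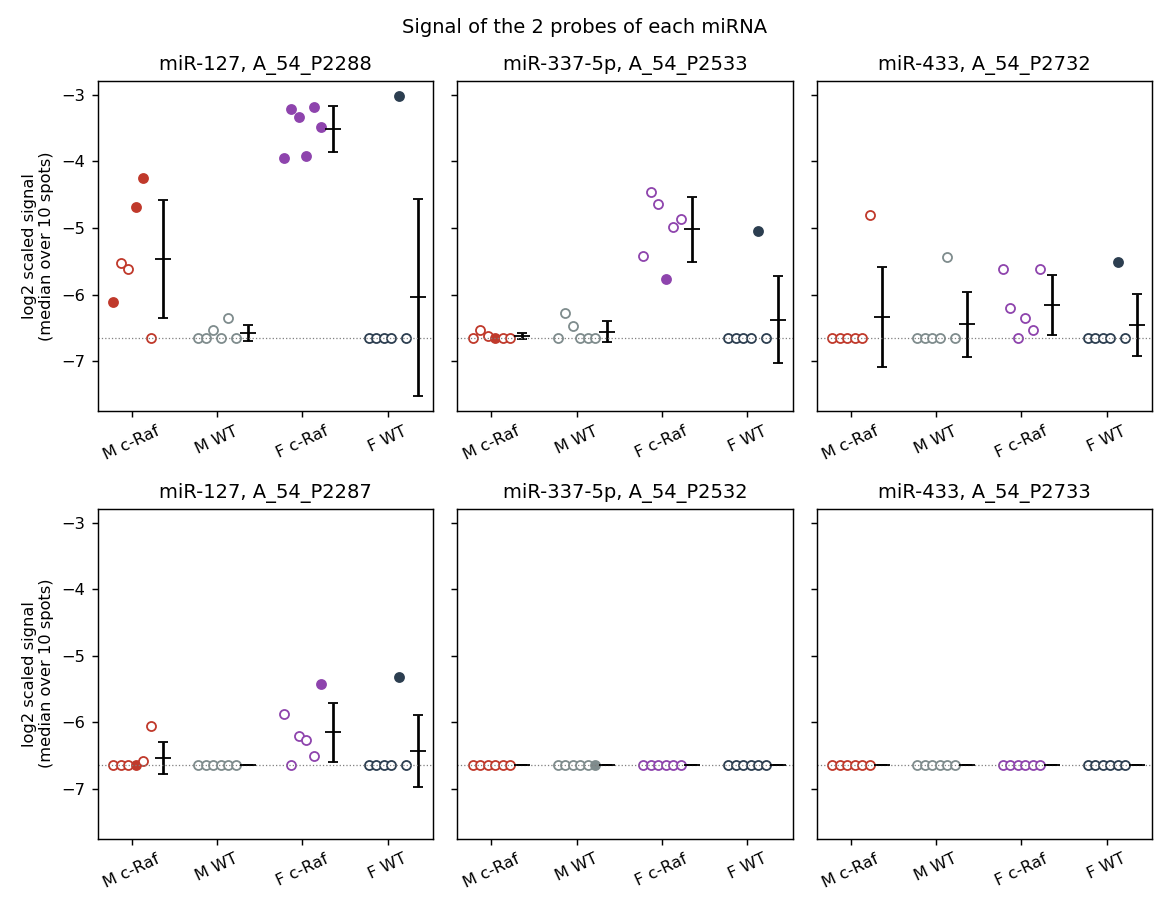
Scaled signal of each probe (log2, median over 10 spots) by group, with the probe of higher mean above and the other below. Filled points are arrays with at least 1 spot well above background, bars show the mean and SD of 6 arrays, and the dotted line is the floor. In F c-Raf, A_54_P2288 lies between -3.95 and -3.18 and A_54_P2533 between -5.77 and -4.46, while A_54_P2532 and A_54_P2733 lie at the floor on all arrays.

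The F c-Raf arrays had a scaled signal of -3.51 ± 0.34 at A_54_P2288, the F WT arrays -6.04 ± 1.48, the M c-Raf arrays -5.47 ± 0.89 and the M WT arrays -6.57 ± 0.12 (SD, n = 6 each). In females the probe was up-regulated in c-Raf by 2.53 (SE 0.50, limma adjusted p = 0.00298 over the 265 probes of the tested miRNAs, of which 3.02% were called). A_54_P2288 was among the 265 only because miR-127 passed the filter on detection through its F c-Raf arrays. It was followed further as the miR-127 probe with the larger differences, so that p-value is not independent support. With all 1759 mouse probes in the fit, the adjusted p was 0.0218, and 0.284% were called. The difference was 3.13 (limma adjusted p = 2.25e-07) without F WT replicate 5, and the call held with any 1 array left out, but not with a floor of 0.1, where the difference was -0.01. Only 1 of the 6 F WT arrays had spots well above background at this probe, so that 2.53 depends on the floor. With each F WT array set to its dimmest signal well above background where that was higher than the probe's own, the F c-Raf mean exceeded the F WT mean by 0.30. The median over the spots of both probes, given above, differed by 1.63.

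In males A_54_P2288 differed by 1.10 (SE 0.50, 95% interval 0.07 to 2.13, limma adjusted p = 0.204), with 3.02% of probes called. It was higher in M c-Raf on 5 of 6 slides and within all 4 scans (1.96, 1.05, 0.53 and 1.01), with 4 of the 6 M WT arrays at the floor. The groups share 1 estimate of the spread, and without F WT replicate 5 the male adjusted p was 0.0240 by limma at the same difference. M c-Raf was lower than F c-Raf by 1.96 (difference -1.96, SE 0.50, limma adjusted p = 0.0469, 1.51% of probes called), on 6 of 6 slides. Dropping a single array ended that call in 20 of 24 cases (adjusted p up to 0.149), and so did the fit over all 1759 probes (limma adjusted p = 0.311, with 0.114% called). The male c-Raf effect at A_54_P2288 minus the female was -1.42 (SE 0.70, limma adjusted p = 0.942), and without F WT replicate 5 it was -2.03 (limma adjusted p = 0.0169). At A_54_P2287 the differences were 0.27 in females (SE 0.21, limma adjusted p = 0.840) and 0.11 in males (SE 0.21, limma adjusted p = 0.782), and 0 passed the threshold.

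miR-337-5p, too, was higher on all 6 F c-Raf arrays than on 5 of the 6 F WT arrays before scaling. On F c-Raf arrays its unscaled intensity over 20 spots ran from 0.106 over a median of 2.94 to 7.12, and on F WT arrays from -1.42 over a median of -0.650 to 4.76, the last on replicate 5. The M c-Raf values ran from -0.872 over 0.748 to 3.67, and the M WT values from -1.63 over -0.888 to -0.536. All M WT arrays were thus below 0, and the 2 highest M c-Raf values were on the bright replicates 4 and 5. The scaled signal was -6.12 ± 0.50 in F c-Raf, with 2 of 6 arrays at the floor, and -6.61 ± 0.08 in F WT, with 5 at it.

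In limma over all 611 miRNAs, miR-337-5p differed by 0.49 in females (SE 0.14, adjusted p = 0.259), and by 0.00 in males, where all 12 arrays lay at the floor. The floor sets that 0: the male difference was 1.08 with a floor of 0.001, 0.27 without scaling between arrays and 4.16 with brightness taken over all non-control spots, none of them called (limma adjusted p from 0.376 to 0.701). The exact two-sided permutation test of miR-337-5p alone gave p = 0.0606 in females, unadjusted. The female difference was called by limma only without F c-Raf replicate 1 (0.59, adjusted p = 0.0444). In males 0.164% of the 611 were called.

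The 2 probes of miR-337-5p again answered unequally. A_54_P2532 lay at the floor on all 24 arrays, and its 10 spots enter the median over 20. The rest of this paragraph concerns A_54_P2533, which was singled out after its values were seen. Its unscaled intensity was 2.75 at the lowest, 6.50 at the median and 13.0 at the highest in F c-Raf, and -0.382, 0.593 and 12.8 in F WT, where the highest was again replicate 5. The M c-Raf values were -2.03, 3.50 and 8.40, and the M WT values -0.613, 0.0245 and 1.93. Few of its spots were well above background, 4 of 60 in F c-Raf, 4 of 60 in M c-Raf and 5 of 60 in F WT, on 1 array each, and 0 of 60 in M WT.

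The F c-Raf arrays had a scaled signal of -5.02 ± 0.49 at A_54_P2533, the F WT arrays -6.38 ± 0.65, the M c-Raf arrays -6.62 ± 0.04 and the M WT arrays -6.55 ± 0.15 (SD, n = 6 each). In females it was up-regulated in c-Raf by 1.36 (SE 0.24, limma adjusted p = 0.00748 over all 1759 probes), with a positive difference on each of the 6 slides and in each of the 4 scans. On 5 of those slides F WT lay at the floor, where no negative difference was possible. Without F WT replicate 5 the female difference was 1.62 (limma adjusted p = 2.42e-06), with a floor of 0.001 it was 2.90 and no longer called (limma adjusted p = 0.244), and with a floor of 0.1 it was 0.0. The F c-Raf mean did not reach the dimmest signal that counted as well above background, so no fold is given. In males the difference was -0.07 (SE 0.24, 95% interval -0.56 to 0.43, limma adjusted p = 1.0), where 0.0569% of probes were called. With 4 of 6 arrays of each male group at the floor, this interval does not bound the male difference. With a floor of 0.001 the male difference was 0.71 and not called (limma adjusted p = 0.842). M c-Raf was lower than F c-Raf by 1.60 (difference -1.60, SE 0.24, limma adjusted p = 0.00235), on 6 of 6 slides. On 4 of those slides M c-Raf lay at the floor, where no higher value in M c-Raf was possible. The call between the c-Raf groups, too, was lost at floors of 0.1 (0.0) and 0.001 (-2.74, limma adjusted p = 0.950). The unscaled groups overlap, and the bright M c-Raf replicate 4, with the highest M c-Raf intensity of 8.40, lay under its floor of 12.1 units. The c-Raf effect in males minus that in females was -1.42 (SE 0.34, limma adjusted p = 0.679). In that test limma called 0 of 1759 probes (0.0%), and 12 had an unadjusted p under 0.05. Without F WT replicate 5 the difference of effects was -1.69 (limma adjusted p = 0.000414).

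**Figure D3:**
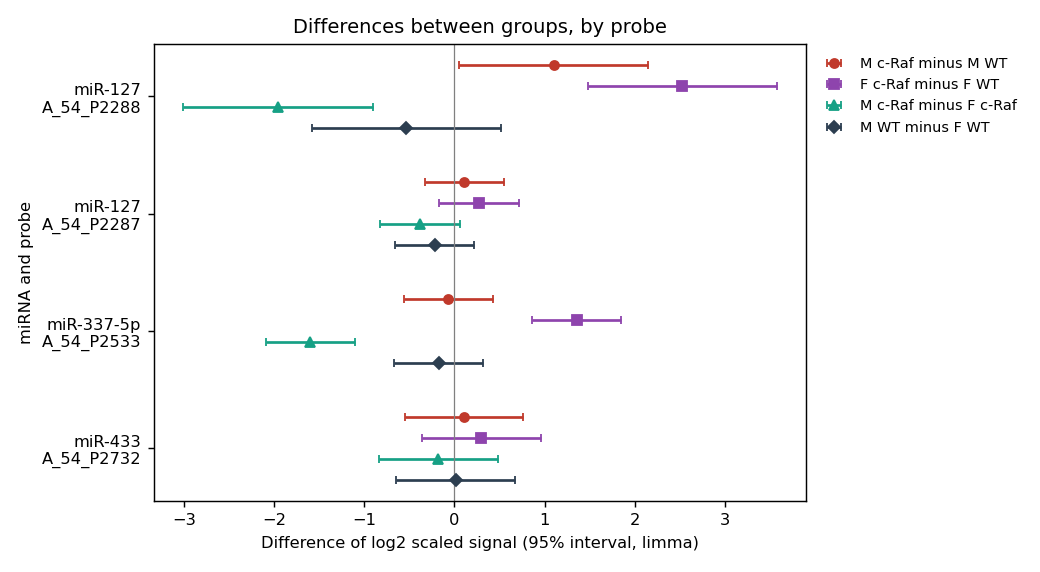
Differences of the log2 scaled signal between groups (horizontal axis) for the 4 probes that were above the floor on any array, with 95% intervals from limma over all 1759 mouse probes. The female c-Raf minus WT intervals of A_54_P2288 and A_54_P2533 lie above 0, and those of A_54_P2287 and A_54_P2732 include 0. The male interval of A_54_P2288 runs from 0.05 to 2.15, and the other 3 male intervals include 0.

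miR-433 was at or near the background in all 4 groups. On F c-Raf arrays its unscaled intensity over 20 spots ran from -1.19 over a median of 0.274 to 2.27, and on F WT arrays from -4.41 over -0.855 to 3.41, where the highest was replicate 5. The M c-Raf values ran from -3.19 over -0.338 to 1.74, and the M WT values from -4.48 over -0.818 to 3.47. The groups overlapped throughout. On the scaled scale 21 of 24 arrays lay at the floor, and the 3 above it were F c-Raf replicate 6 at -6.36, M WT replicate 5 at -5.87 and F WT replicate 5 at -6.50.

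The c-Raf difference of miR-433 was 0.02 in females (SE 0.10, 95% interval -0.18 to 0.22, limma adjusted p = 1.0) and -0.13 in males (SE 0.10, 95% interval -0.33 to 0.07, limma adjusted p = 0.525), both over 611 miRNAs. With so many values at the floor these intervals do not bound the miRNA itself, whose level was not measurable at this signal. Of its probes, A_54_P2733 lay at the floor on all arrays. A_54_P2732 was above the floor on 5 of 6 F c-Raf arrays and on 1 of 6 in each other group, and its female difference was 0.30 (SE 0.32, limma adjusted p = 1.0 over 1759 probes).

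Detection, the scanner software's own call for each miRNA and array, was compared as the number of arrays in each group. miR-127 was detected on 9 arrays, namely all 6 F c-Raf arrays, F WT replicate 5 and M c-Raf replicates 4 and 5. miR-337-5p was detected on 5 arrays, namely F c-Raf replicates 3, 4 and 6, F WT replicate 5 and M c-Raf replicate 4. On F c-Raf replicates 3 and 6, 0 of its 20 spots were well above background. miR-433 was detected on F WT replicate 5 alone. In M WT 0 of the 3 were detected on any array.

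The exact two-sided permutation test of the detection calls of miR-127, 6 against 1 in females, gave p = 0.0152 unadjusted and 1.0 after Benjamini-Hochberg correction over the 204 miRNAs detected on at least 1 array. Without F WT replicate 5 the corrected p was 0.442. With detection asked of at least 50% of the spots, the counts were 3 against 1 and the exact p was 0.545. In males, with 2 against 0, the exact test gave p = 0.455. For miR-337-5p, with 3 against 1 in females, the exact test gave p = 0.545. Over all 204 miRNAs 0 were called in either sex (0.0%), and 1 had an unadjusted p under 0.05 in females and 0 in males. With 6 arrays a group the smallest p this test allows is 0.00216.

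Brightness moved with detection in part. The arrays on which miR-127 was detected had a median brightness of 324.6, against 203.6 for those on which it was not. Both M c-Raf detections were on the 2 brightest arrays of the series. In females, F c-Raf was dimmer than F WT at the median. miR-127 was detected at a brightness as low as 86.8, on F c-Raf replicate 5 with 1 of 20 spots well above background. F WT replicate 4, at 550.3, showed none. The part of brightness in the detections was not tested. The correlation of the scaled signal with log2 brightness over the 24 arrays was 0.21 for miR-127 and 0.29 for A_54_P2288, as a description.

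**Figure D4:**
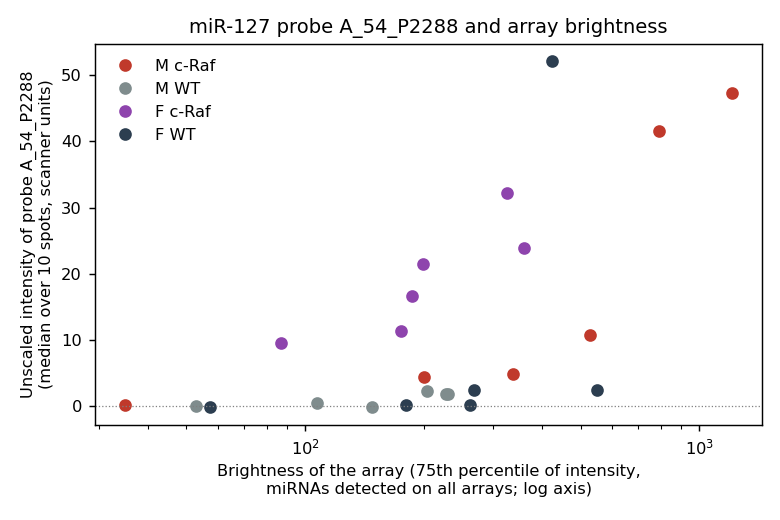
Unscaled intensity of the miR-127 probe A_54_P2288 (vertical axis, median over 10 spots) against the brightness of the array (horizontal log axis), 1 point per array, coloured by group. The 6 F c-Raf arrays lie between 9.57 and 32.2 at a brightness of 86.8 to 358.9. The M WT arrays and 5 of the F WT arrays, whose brightness ran from 52.8 to 550.3, lie below 2.5, and F WT replicate 5 is the highest point at 52.1.

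Most other miRNAs of the region were not detected. Of 75 mature miRNAs of the Dlk1-Dio3 region on the array, 9 were detected on at least 1 array, beside 204 of all 611 mouse miRNAs (33.4%). Of the 15 antisense to Rtl1 they were 4, namely the 3 described and miR-434-3p (M c-Raf replicate 4 and F WT replicate 5). Of the 60 elsewhere in the region they were 5. miR-299* was detected on 3 arrays, M c-Raf replicate 4, M WT replicate 5 and F WT replicate 5. miR-485* was detected on 3, miR-154 on 2, miR-494 on 2 and miR-411* on 1. RefSeq placed 2 more miRNAs of the array in the region that the list does not hold, miR-1906, detected on 1 array, and miR-882, detected on 0.

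miR-127 alone of the 75 passed the filter of 6 arrays (1.33%), beside 19.6% of all mouse miRNAs. M c-Raf replicate 4, the brightest array, showed 6 of the 75 miRNAs of the region, beside 179 of all 611 mouse miRNAs. F WT replicate 5 showed 5 of the 75, of which 4 were antisense to Rtl1, beside 117 of the 611. The other 5 F WT arrays showed 1 in all, miR-485* on replicate 1, beside 62 to 150 of the 611 on each. In F c-Raf each array showed 1 to 3, beside 54 to 139 of the 611. The 6 detections of miR-127 and 3 of miR-337-5p were all but 2 of the F c-Raf detections in the region.

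**Figure D5:**
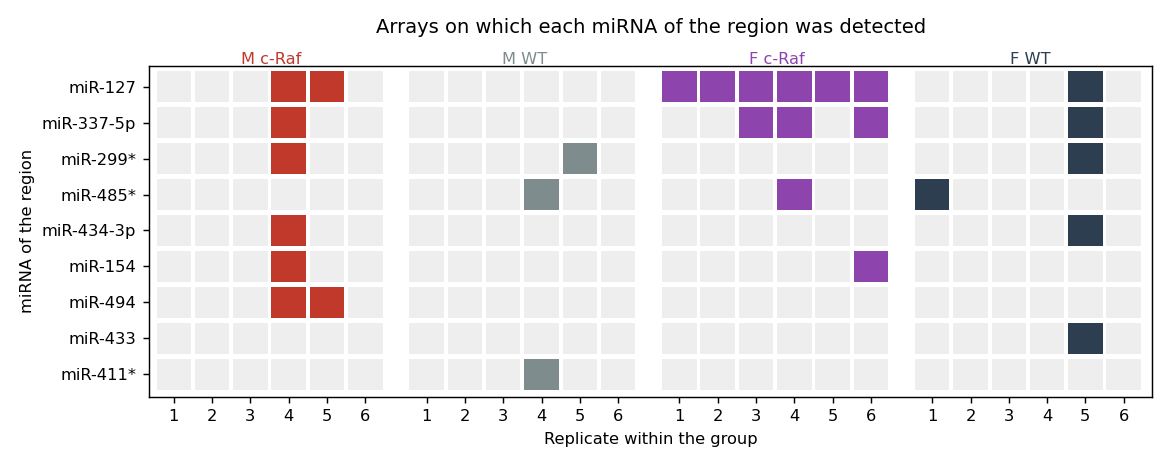
Detection of the 9 miRNAs of the region that were detected on at least 1 array (rows) on each of the 24 arrays (columns, by group and replicate). Coloured squares are detected and grey squares are not. miR-127 fills all 6 F c-Raf columns, and miR-127, miR-337-5p, miR-433, miR-434-3p and miR-299* share F WT replicate 5.

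Over the 24 arrays, the miRNAs whose scaled signal was most like that of miR-127 among the others tested were miR-146b (Pearson r = 0.90), miR-31 (0.89), miR-200a (0.77), miR-21 (0.75) and miR-183 (0.74), where the median over all was 0.00. Without F WT replicate 5 these 5 were at 0.95, 0.88, 0.78, 0.80 and 0.67. miR-146b is an inflammation-responsive miRNA, miR-21 is raised in many tumours, and miR-200a belongs to the epithelial miR-200 family. After removal of the group means the highest were miR-31 (0.85), miR-146b (0.79), miR-183 (0.67), miR-200a (0.50) and miR-125a-5p (0.37). Without that array the latter 5 were at 0.72, 0.61, 0.43, 0.40 and 0.29. All points share their arrays and the brightness by which they were scaled, and miR-146b, miR-31, miR-200a and miR-183 were, like miR-127, detected on only 9 to 11 arrays, so that the floor sets part of each value.

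Markers of cell types were read beside these results as sums of scaled linear signal. All 5 epithelial miRNAs were detected on at least 1 array, and 2 of them on all arrays. Their sum ran from 1.12 to 1.85 in F c-Raf and from 0.817 to 1.60 in F WT. The 3 mesenchymal miRNAs (miR-214, miR-199a-3p and miR-199a-5p) were each detected on at least 1 array, and 1 of them on all arrays. They summed to 0.217 to 0.272 on F c-Raf arrays and 0.216 to 0.350 on F WT arrays. On M c-Raf arrays they summed to 0.211 to 0.256, below all M WT arrays (0.261 to 0.455). Of the 2 endothelial miRNAs miR-126-5p was detected on 0 arrays, and their sum ran from 0.276 to 0.509 for F c-Raf and from 0.213 to 0.320 for F WT. The neuronal miRNAs miR-124 and miR-9 were detected on 0 arrays, as were miR-142-3p and miR-142-5p of the leukocytes, miR-144 of red blood cells and miR-1 and miR-206 of muscle. On F WT replicate 5 the sums of mesenchymal, endothelial, ciliated cell and red blood cell markers were the lowest of the F WT group, at 0.216, 0.213, 0.0698 and 0.112, and that of the leukocyte markers was the highest at 0.0575. The epithelial sum on that array, 1.11, lay inside the F WT range. The sums for smooth muscle, striated muscle, neurons and liver were 0.0 on that array. The part of other cell types in the miR-127 and miR-337-5p signal was not tested.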

How the data were processed

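Total RNA of 24 lung samples was hybridised to Agilent mouse miRNA arrays with 1 colour. The authors deposited 1 scanner file per array, made with Agilent Feature Extraction (10.7.3.1 in the file headers, 8.1.3 in the submitters' processing notes), and a table of processed values. The deposited intensity used is the background-subtracted spot signal, which can be negative. The deposited table holds linear values on a ratio scale with 1 factor per array: all of its 5562 values that could be compared were within 1% of the spot median times that factor. It holds 12 values for miR-127, 12 for miR-337-5p and 6 for miR-433, all of c-Raf arrays. A log2 scale was computed here. The array design is older than the RefSeq build GRCm38.p6 used for sequences, and probe sequences were not used here.

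Spots were divided by the 75th percentile over the 27 miRNAs detected on all arrays and floored at 0.01, and the median over 20 spots (10 for a probe) was taken as log2. Group means were compared in 1 model over the 4 groups with limma 3.58.1 in R 4.3.3, with Benjamini-Hochberg correction and a threshold of 0.05, over the 120 miRNAs detected on at least 6 arrays, or over all 611 for miR-433 and miR-337-5p, which failed that filter. Probes were fitted over 265, and over all 1759 as an alternative added after seeing the data. A difference of exactly 0 between values at the floor was given a p of 1. Exact permutation tests used all 924 divisions of the arrays (Python 3.11.15, scipy 1.17.1). The fit was tested on simulated data.

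Samples were grouped by their titles. The replicate number equals the slide for all 24 arrays. Of 36 pairs of arrays of equal number, 23 had correlated deviations over 0.1 (median 0.36, lowest -0.42, median of other pairs -0.06). Arrays on the same slide thus tended to vary together. The main fits and the permutation tests did not use this pairing, and slides were taken as a block only in an alternative. The 6 slides were scanned in 4 runs.

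The members and lists were chosen with earlier results of these data known. Named miRNAs were the 3 members, the region's miRNAs detected on at least 1 array, the 5 most like miR-127 before and after removing group means, and the cell type markers. Of the 75 listed miRNAs of the region, RefSeq placed 72 in it, and 3 were not found in its table. The number of arrays and the low signal limit the precision.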

Additional observations from a re-analysis of the deposited data

Results flagged for a closer look

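The values given here lay apart from the other 5 arrays of their group by a gap that was a larger share of the group's range than Dixon's 95% limit for 6 samples. Of 36 groups examined (3 miRNAs and 6 probes in 4 groups), 13 gave such a value. Chance gives about 5% of groups where values are spread freely, but where the other 5 arrays lie at the floor any value above it is singled out.

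F WT replicate 5 accounted for 7 of the 13. Its scaled signal was -3.15 for miR-127, -6.50 for miR-433 and -6.45 for miR-337-5p. By probe it was -3.02 at A_54_P2288, -5.32 at A_54_P2287, -5.04 at A_54_P2533 and -5.52 at A_54_P2732. In each case the other 5 F WT arrays lay at the floor.

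M WT replicate 5 lay apart for miR-433 (-5.87) and its probe A_54_P2732 (-5.44). F c-Raf replicate 6 lay apart for miR-433 (-6.36). M c-Raf replicate 6, the dimmest array of the series, lay apart at A_54_P2287 (-6.05) and at A_54_P2732 (-4.80), where its unscaled intensities were 0.525 and 1.25. M c-Raf replicate 2 lay apart at A_54_P2533 (-6.53).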

How the results depend on the processing

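Values in this paragraph are log2 differences between groups in the order of the groups' names, with limma adjusted p in brackets where a call changed, and the causes were not tested unless the setting's own construction shows them. Most values of the 3 miRNAs lie near the floor, so the floor and the scaling decide much of what was measured. With a floor of 0.1, which covers nearly all of these values, miR-127 was at -0.0284 in females, -0.0142 over both sexes, 0.0284 for the male minus the female effect and 0.0 between the male and female c-Raf groups. A_54_P2288 was then at -0.00824 in females, 0.00824 for the difference of effects and -0.0424 between the c-Raf groups, and A_54_P2533 at 0.0 in both. With a floor of 0.001, miR-127 was at 2.98 in males (0.0428) and -1.78 between the c-Raf groups (0.937), A_54_P2288 at -2.14 between them, and A_54_P2533 at 0.707 in males, 2.9 in females (0.244) and -2.74 between the c-Raf groups. When values were floored instead at the dimmest spot well above background, miR-127 came to -1.02 in males, -0.115 in females, -0.566 over both sexes, -0.384 between the c-Raf groups and 0.519 between the WT groups.

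With the 75th percentile of every non-control spot, miR-127 came to 4.94 in males, 4.92 in females (0.166), 4.93 over both sexes (0.00486), 0.0282 for the difference of effects and -1.67 between the c-Raf groups (0.998), miR-433 to 0.467 in males and 1.4 in females, and miR-337-5p to 4.16 in males and 4.88 in females. Without scaling, miR-127 was at 1.36 in females (0.984), 1.42 over both sexes (0.204), 0.119 for the difference of effects and -0.627 between the c-Raf groups, and miR-433 at -0.099 in females. With quantile normalization, miR-127 was at 1.63 in females (0.0599) and -1.58 between the c-Raf groups (0.129), and miR-433 at -0.0589 in females. With normexp on median signals, miR-127 was at -0.838 in males, 0.748 in females (0.326), -0.045 over both sexes, -1.13 between the c-Raf groups (0.116) and 0.454 between the WT groups.

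The mean over spots gave -1.3 for miR-127 between the c-Raf groups (0.146) and 0.0308 for miR-433 in males. The total gene signal gave -1.89 (0.0712) for the former and -0.0876 for miR-433 in females. The deposited table gave -1.59 between the c-Raf groups (0.991), and no other comparison, since it has no WT values for the 3 miRNAs. Without a filter on detection, miR-127 was at 1.63 in females (0.186), 1.06 over both sexes (0.142) and -1.71 between the c-Raf groups (0.219), and with miRNAs detected on at least 1 array at 1.63 (0.0568) and -1.71 (0.0658) in the first and the last. The methods' t-test on linear values gave 0.815 for miR-127 in females, which failed it. Between the c-Raf groups miR-127 passed it only before correction (adjusted p = 0.406), when 0 of 611 miRNAs passed. It was not run over both sexes or for the difference of effects, for which it has no form.

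With the slide as a replicate block, no call on the 3 miRNAs or on A_54_P2288 and A_54_P2533, the probes run with it, changed: miR-127 was at 1.63 in females (0.0246), 1.06 over both sexes (0.0139) and -1.71 between the c-Raf groups (0.0205). The scan as a block changed none of the miRNA calls either. Within scan 2, miR-127 was at 0.828 in females, -0.194 for the difference of effects and -1.75 between the WT groups, miR-433 at -0.385 in males, A_54_P2288 at 1.5 and A_54_P2533 at 0.921 in females, with differences of effects of -0.45 and -0.921. Within scan 1, the c-Raf groups differed by -0.541 in miR-127, -0.766 in A_54_P2288 and -0.875 in A_54_P2533, which was at 0.875 in females and -0.875 for the difference of effects. Within scan 4, the difference of effects was -2.02 in miR-127, -2.36 in A_54_P2288 and -2.3 in A_54_P2533, miR-337-5p was at 0.911 and A_54_P2533 at 2.09 in females, and the latter at -2.03 between the c-Raf groups. Within scan 3, miR-337-5p was at 0.0 in females.

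Leaving out 1 array at a time, miR-127 ran from 0.354 to 0.594 in males, 1.51 to 2.21 in females, 0.99 to 1.35 over both sexes, -1.71 to -1.01 for the difference of effects, -1.85 to -1.61 between the c-Raf groups and -0.698 to 0.0 between the WT groups. The arrays whose loss ended the female call and the call between the c-Raf groups are named beside those results. miR-433 ran from -0.154 to 0.0 in males and -0.024 to 0.0466 in females, and it was negative without F c-Raf replicate 6. miR-337-5p ran from 0.363 to 0.59 in females and was called only without F c-Raf replicate 1 (0.0444). A_54_P2288 ran from 0.858 to 1.34 in males, 2.41 to 3.13 in females and -2.2 to -1.72 between the c-Raf groups, where the call was lost in 20 of 24 settings, and its difference of effects from -2.03 to -1.19. A_54_P2533 ran from -0.0864 to -0.0122, 1.24 to 1.62 and -1.75 to -1.49 in these comparisons, with its calls held, and from -1.69 to -1.31 for the difference of effects. The latter was called in both probes only without F WT replicate 5. Counting an array as detected where at least 50% of spots were well above background gave 3 against 1 for miR-127 in females, where the exact p rose to 0.545.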
